A study of Arabidopsis thaliana with 22 samples.

Results

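Roots sampled 24 h after a transfer of the plants to new medium were compared with roots sampled 12 h after it, to ask which transcripts changed over the second part of the first day and whether that change depended on sulfate. The comparison takes 8 of the 22 arrays of a series on the response of Arabidopsis thaliana to sulfate limitation. The 4 groups were roots after 24 h on agar without sulfate (0 uM, called sulfate-free), roots after 24 h on agar with 1500 uM sulfate (called replete), roots after 12 h on sulfate-free agar, and roots after 12 h on replete agar. Each group had 2 arrays, lettered A and B. All plants were of the accession Col-0 and were 10 days old per the labels, and no mutant or transgene was involved. Arrays were matched by medium and letter, which gave 4 pairs of a 24 h and a 12 h array. The other arrays of the series, from roots sampled 2, 4 and 8 h after transfer on both media and from roots that were not transferred (labelled 0 h), serve below to place the levels in time. Roots sampled 24 and 12 h after transfer also differ in the time of day and slightly in age. The light regime is not given in the sources used here, so hours since transfer, time of day and age cannot be told apart.

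Plant roots, like shoots, run a circadian clock, a feedback loop of transcription factors with evening components such as GIGANTEA, and many transcripts for metabolism and growth cycle with it. Roots carry non-green plastids, yet nuclear genes for photosynthesis proteins are transcribed in them at low levels, more so in light. Root metabolism draws on sugar from the shoot, and ethanol fermentation, which starts with pyruvate decarboxylase, is its best known response to low oxygen.

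Transcripts were measured on arrays of 22810 probe sets, of which 64 are controls and 22746 were tested. Values are MAS5 signals, a linear intensity that the authors had scaled. The mean after trimming 2% at each end lay between 100.007 and 100.008 on every array. Median signals of the 8 arrays lay between 43.9 and 46.1, and arrays A and B of a group correlated over probe sets with r between 0.985 and 0.987. The markers of root tissue that could be read were bright: PYK10, the root beta-glucosidase of endoplasmic reticulum bodies, averaged 2746 ± 417 at 24 h and 3283 ± 929 at 12 h (SD, n = 4 each). NAI2, another protein of these bodies, averaged 1372 ± 135 at 24 h and 1726 ± 311 at 12 h. No listed endodermis, vascular or root cap marker was on a named probe set. Changes below are log2 differences of signal + 11, 24 h minus 12 h, with a standard error (SE) from limma. "Called" means a Benjamini-Hochberg adjusted p under 0.05 over all 22746 probe sets. Whether arrays A and B came from separate cultures is not given in the sources used here, and p-values then measure no more than the spread between these samples, possibly a technical one. Averages are given ± SD over the 4 arrays of a time, both media together, unless stated otherwise. In whole roots, fewer cells of a type and less RNA per cell cannot be told apart.

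Over both media, 834 probe sets rose and 706 fell at 24 h relative to 12 h, which is 3.67% and 3.1% of those tested and 6.77% together. These shares are the background for each count of list members below. The median change of the 1540 called probe sets was 0.51 in absolute size, or 1.42-fold, and 95 rose and 58 fell by at least 1 on the log2 scale. The median over all probe sets was 0.004. All 4 arrays at 24 h lay above all 4 at 12 h for 1437 probe sets (6.32%) and below them for 1306 (5.74%). Of the called probe sets, 405 rises and 350 falls carry exactly 1 gene name, which is 3% and 2.59% of the 13513 such probe sets. Another 423 rises and 340 falls have no gene listed in the annotation used here, which is 4.85% and 3.89% of 8730. The count depended on single pairs, since leaving out an array also takes its pair out of the comparison. The 8 fits over both media with an array left out thus amount to leaving out each of the 4 pairs, by either of its arrays. The count lay between 570 and 642 without any 1 of the 4 sulfate-free arrays or without either replete array A. It was 1308 without the replete 24 h array B and 1309 without the replete 12 h array B. Without an intensity trend in the variance 914 probe sets were called, and 448 of the 1540 were called in each of the 8 fits with an array left out.

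The largest rises were seen for unnamed probe sets. Probe set 261569_at averaged 490.7 ± 81.6 at 24 h and 9.54 ± 6.15 at 12 h (SD, n = 4 each), a log2 difference of 4.65 (SE 0.11, adjusted p = 2.14e-06). Probe set 267002_s_at averaged 341.5 ± 15.7 at 24 h and 16.2 ± 5.11 at 12 h (3.71, SE 0.099, adjusted p = 2.65e-06). The largest unnamed falls were those of 267364_at, with 56.1 ± 9.11 at 24 h and 608 ± 132 at 12 h (-3.19, SE 0.14, adjusted p = 4.23e-05). Next was 257985_at, with 27.8 ± 6.94 at 24 h and 229 ± 41.8 at 12 h (-2.63, SE 0.15, adjusted p = 0.000134).

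Among named genes, AT3G16800, which encodes a protein phosphatase of the 2C type, rose most. Its signals were 316 and 366 in sulfate-free and 355 and 373 in replete roots at 24 h. At 12 h, sulfate-free roots had 42.4 and 48.2 and replete roots had 41.5 and 44.4. All 4 values at 24 h lay far above the 12 h values, with hardly any difference between media, and the log2 difference was 2.72 (SE 0.068, adjusted p = 2.14e-06). AT5G15950, an S-adenosylmethionine decarboxylase gene of polyamine synthesis, had signals of 158 and 229 in sulfate-free and 155 and 282 in replete roots at 24 h. The 12 h signals were 29.8 and 46.3 in sulfate-free roots and 30.6 and 45.1 in replete roots. Its times did not overlap either, but the gap was smaller than for AT3G16800 and array B was brighter than array A in each group. The log2 difference was 2.13 (SE 0.089, adjusted p = 3.68e-05). OSM34, an osmotin-like protein gene, had 385 and 414 in sulfate-free and 423 and 325 in replete roots at 24 h. Sulfate-free roots at 12 h had 106 and 79.3, and replete roots had 97.9 and 141. The times did not overlap, and the difference was 1.78 (SE 0.16, adjusted p = 0.00102).

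The other 12 of the 15 largest named rises had log2 differences between 1.2 and 1.96. In each of them the 4 arrays at 24 h lay above the 4 at 12 h, as the rule for choosing all 15 required. AT1G33055, a small gene known to be induced by low oxygen, averaged 80.7 ± 7.94 at 24 h and 12.6 ± 2.38 at 12 h (log2 difference 1.96, adjusted p = 0.000286). The regulators among them were AT3G13040, a myb-like factor, and bZIP58. AT3G13040 averaged 159.8 ± 17.0 at 24 h and 51.2 ± 5.09 at 12 h (log2 difference 1.46, adjusted p = 0.000124). For bZIP58 the averages were 53.1 ± 13.6 at 24 h and 15.9 ± 3.46 at 12 h (log2 difference 1.24, adjusted p = 0.00225). Enzymes made up 4 of the 12. AT1G52820, an oxoglutarate-dependent dioxygenase, averaged 94.7 ± 33.1 at 24 h and 30.6 ± 10.6 at 12 h (log2 difference 1.32, adjusted p = 0.000861). The haloacid dehalogenase-like hydrolase AT2G32150 averaged 266 ± 19.4 at 24 h and 101 ± 15.5 at 12 h (log2 difference 1.31, adjusted p = 0.000386). The alpha/beta-hydrolase AT1G18460 had a difference of 1.23 (adjusted p = 0.000477), and the aspartyl protease family gene AT5G19120 had 1.2 (adjusted p = 0.00083). AT4G15430, of a family of early dehydration-responsive membrane proteins, AT1G49470 and AT4G39675 rose by 1.26, 1.2 and 1.25 (adjusted p = 0.00119, 0.000477 and 0.00192). The remaining 2, RCA and PSAN, are photosynthesis genes.

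**Figure D1:**
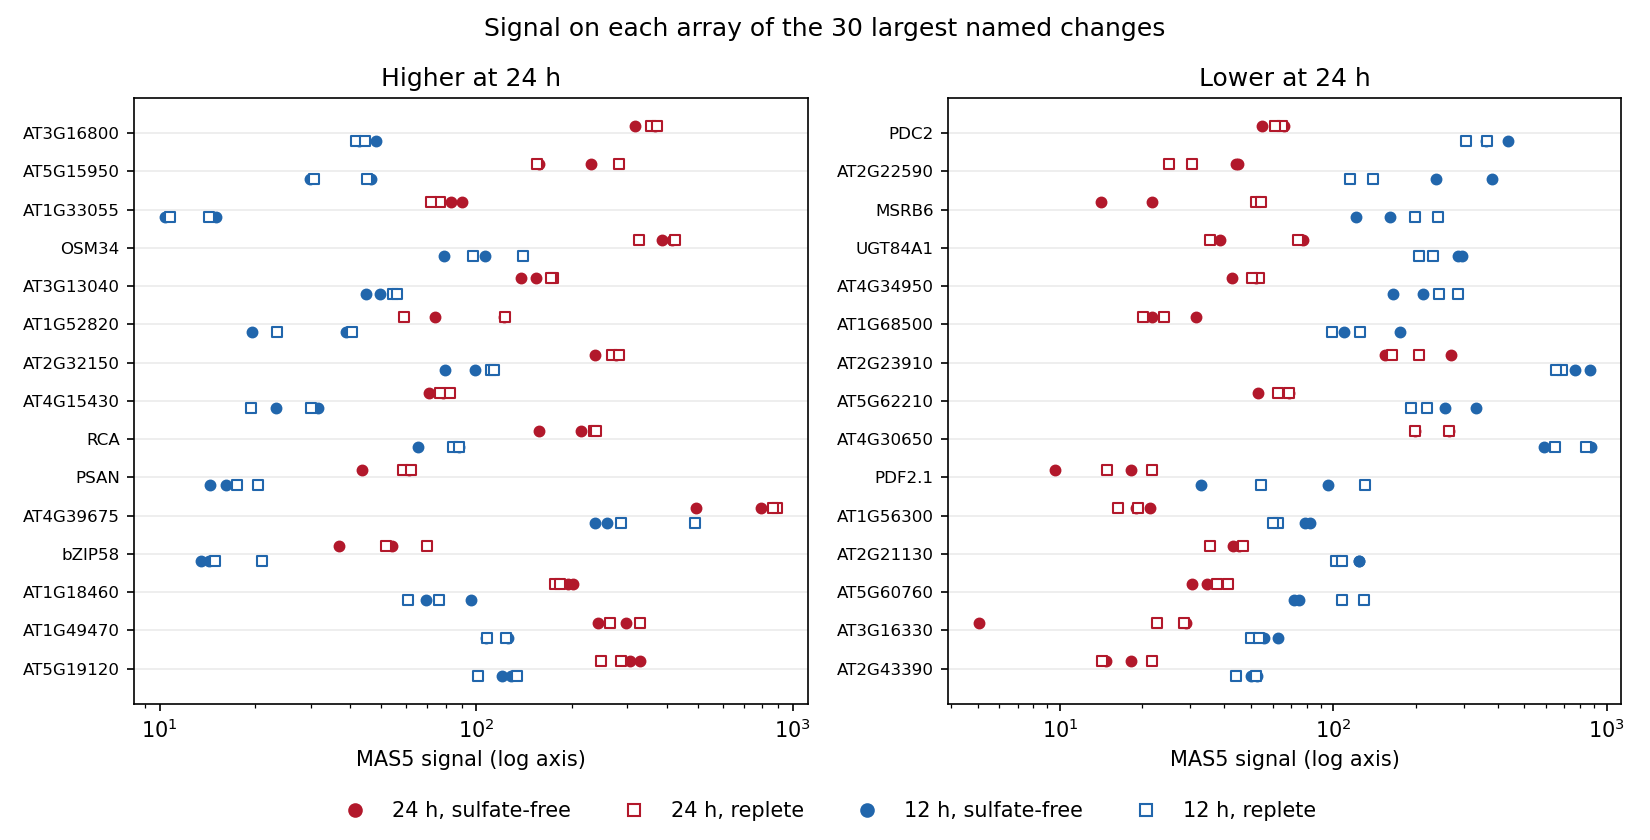
MAS5 signal (log axis) on each of the 8 arrays for the 15 largest named rises (left) and the 15 largest named falls (right), with 24 h in red and 12 h in blue, sulfate-free roots as filled circles and replete roots as open squares. The red and blue points of a gene do not overlap, which was a condition for being shown, and both media lie on the same side for each gene.

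Several nuclear genes for photosynthesis proteins were higher at 24 h. RCA, which encodes Rubisco activase, had signals of 158 and 214 in sulfate-free and 236 and 239 in replete roots at 24 h. Its 12 h signals were 65.3 and 88.3 in sulfate-free and 84.6 and 88.3 in replete roots. The 4 values at 24 h were all above those at 12 h, and the log2 difference was 1.26 (SE 0.07, adjusted p = 0.000132). PSAN, a photosystem I subunit on the lumen side, had 43.4 and 61.3 in sulfate-free and 58.5 and 62.1 in replete roots at 24 h. At 12 h, sulfate-free roots had 14.4 and 16.2 and replete roots had 20.4 and 17.5. Again the times did not overlap (log2 difference 1.25, SE 0.12, adjusted p = 0.00141). Of the 8 tested nuclear genes for photosystem and antenna proteins, 6 rose (75%, beside 3.67% of all probe sets), 0 fell and 2 did not pass. The median log2 difference was 0.74 and lay between 0.53 and 1.0 in the 4 pairs, beside 0.004 over all probe sets. This list was drawn up after values of such genes had been seen, so its count and median are descriptions. Besides PSAN the called genes were LHCB4.2 and LHCB4.1, which encode the antenna protein CP29, with differences of 1.70 (adjusted p = 0.00223) and 0.66 (adjusted p = 0.00614). The others were the photosystem II assembly factor PSB27 with 0.95 (adjusted p = 0.00748), the photosystem I subunit PSAE-1 with 0.77 (adjusted p = 0.0375) and the photosystem II subunit PSBY with 0.72 (adjusted p = 0.0122). LHCB4.2 was dim, with 34.8 ± 10.2 at 24 h and 2.93 ± 1.83 at 12 h, so that the size of its change depends on the pseudocount. LHCB4.3, of the same antenna family, and PSBW, a small photosystem II subunit, had 0.036 (adjusted p = 0.939) and 0.31 (adjusted p = 0.202). PSAE-1 lost its call without any 1 of the 4 sulfate-free arrays or either replete array A (adjusted p between 0.099 and 0.166). PSBY lost it without any 1 of the 4 sulfate-free arrays (0.062 to 0.073).

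Of 10 tested genes on the list for chlorophyll, haem and carotenoid synthesis, which need not hold every gene of these pathways, 2 rose and 0 fell. Their median difference was 0.042. The 2 were LYC, a lycopene cyclase gene of carotenoid synthesis, and CHLM, the methyltransferase of the magnesium branch towards chlorophyll. LYC averaged 164 ± 11.8 at 24 h and 84.0 ± 5.93 at 12 h (log2 difference 0.88, SE 0.072, adjusted p = 0.000763), and CHLM averaged 126 ± 12.4 at 24 h and 70.7 ± 8.41 at 12 h (log2 difference 0.75, SE 0.075, adjusted p = 0.00177). Of 69 tested chloroplast-encoded transcripts 15 had a positive difference. The median was -0.10 and lay between -0.38 and 0.05 in the 4 pairs, with -0.23 in sulfate-free and 0.012 in replete roots. Over both media 0 fell and 1 rose. That transcript, psbZ, had a difference of 0.38 (SE 0.062, adjusted p = 0.0128). It was not called without the pairing (adjusted p = 0.184), with all 22 arrays (0.138), or without any 1 of the 4 sulfate-free arrays or either replete array A (0.054 to 0.080). The summed signal of the 3 measured green tissue markers, RCA, LHCB4.1 and PRK, was 292 to 386 at 24 h and 139 to 191 at 12 h, and it was 396 to 456 in roots that were not transferred. None of the 3 was at 0, and the part that green tissue in the samples had in the rises was not tested.

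For the clock, 4 listed genes could be tested, of which 1 rose, 2 fell and 1 did not pass. GI, the evening gene GIGANTEA, had 162 and 207 in sulfate-free and 183 and 197 in replete roots at 24 h. The 12 h signals were 99.8 and 142 in sulfate-free roots and 119 and 111 in replete roots. All 4 arrays at 24 h were above every 12 h array (log2 difference 0.62, SE 0.069, adjusted p = 0.00262). COR27, a cold-inducible evening gene that represses other clock genes, had 0.67 and 0.577 in sulfate-free and 1.04 and 0.628 in replete roots at 24 h. Sulfate-free roots at 12 h had 24.3 and 18.6, and replete roots had 27.5 and 13.3. These 24 h signals are close to 0, so the difference of -1.42 (SE 0.13, adjusted p = 0.00117) is set in part by the pseudocount, but the groups did not overlap. Its relative AT4G33980 (COR28) averaged 6.50 ± 1.68 at 24 h and 31.9 ± 3.49 at 12 h (log2 difference -1.29, SE 0.14, adjusted p = 0.00237). This 24 h average is below the pseudocount of 11, so the size of the COR28 change depends on it too. The RVE-type myb gene AT5G52660 had 0.21 (adjusted p = 0.332).

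The largest named fall was that of PDC2, a pyruvate decarboxylase gene at the entry to ethanol fermentation. Its signals were 55.1 and 66.2 in sulfate-free and 65.1 and 61.2 in replete roots at 24 h. Its 12 h signals were 362 and 435 in sulfate-free and 305 and 364 in replete roots. Every 24 h array was lower than every 12 h array, which was a condition for all of the 15 largest named falls given here and below. The log2 difference was -2.36 (SE 0.09, adjusted p = 1.87e-05). Of the 4 tested genes on the low oxygen list 1 rose, 2 fell and 1 did not pass, so the list did not move one way. AT1G33055 rose, as given above, while the lactate dehydrogenase gene AT4G17260 fell, with averages of 154 ± 13.0 at 24 h and 191 ± 23.6 at 12 h (log2 difference -0.29, adjusted p = 0.0359). The call of AT4G17260 was lost without any 1 of the 8 arrays (0.070 to 0.159) and without the pairing (0.134). AT3G10040, a trihelix factor that dampens the low oxygen response, was at 11.5 ± 3.87 at 24 h and 10.2 ± 0.564 at 12 h.

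Genes for enzymes that attach sugars to small molecules were among the next falls. AT2G22590, of the UDP-glycosyltransferase family, had 44 and 44.7 in sulfate-free and 25.1 and 30.5 in replete roots at 24 h. At 12 h, sulfate-free roots had 237 and 381 and replete roots had 116 and 139.6. The 12 h signals were higher on sulfate-free than on replete medium, and the times did not overlap (log2 difference -2.16, SE 0.16, adjusted p = 0.000518). UGT84A1, which glucosylates hydroxycinnamates such as sinapate, had 38.7 and 77.5 in sulfate-free and 35.5 and 74.1 in replete roots at 24 h. The 12 h signals were 285 and 295 in sulfate-free roots and 232 and 206 in replete roots. Each 24 h array was below each 12 h array, and the difference was -2.03 (SE 0.19, adjusted p = 0.00124). UGT73B1, another member of the family, averaged 40.5 ± 6.32 at 24 h and 90.2 ± 10.2 at 12 h (log2 difference -0.98, SE 0.096, adjusted p = 0.00152). Of 47 tested genes with a UGT symbol, 2 rose, 2 fell, and the median was -0.0069. Family members named by locus alone, such as AT2G22590, are not among the 47, so these counts do not cover the whole family. Within the 47 the falls were those of UGT84A1 and UGT73B1, and the rises those of UGT76E2, which was dim, and UGT72E1 (0.49 and 0.29). Both rises were lost without any 1 of the 8 arrays (adjusted p between 0.059 and 0.215) and without the pairing (0.052 and 0.185). AT2G23910, related to the cinnamoyl-CoA reductases of lignin synthesis, averaged 199 ± 52.6 at 24 h and 746 ± 97.4 at 12 h (log2 difference -1.87, SE 0.14, adjusted p = 0.000548). Of 3 tested genes on the flavonoid list UGT84A1 was called. UGT78D2, a flavonoid 3-O-glucosyltransferase gene, had -0.73 (adjusted p = 0.0684) and DFR, dihydroflavonol reductase, had 0.049 (adjusted p = 0.932). This list is not complete: CHIL, which is outside it, had -0.91 (adjusted p = 0.00126).

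MSRB6, a methionine sulfoxide reductase gene, had 14.1 and 21.8 in sulfate-free and 52.4 and 54.2 in replete roots at 24 h. Sulfate-free roots at 12 h had 121 and 161, and replete roots had 199 and 241. The 24 h values all lay below the 12 h values, replete roots were brighter than sulfate-free roots at both times, and the difference was -2.12 (SE 0.13, adjusted p = 0.0002). It was the only 1 of 5 tested methionine sulfoxide reductase genes to be called, and the bright MSRB9 and MSRB5 had 0.15 (adjusted p = 0.39) and -0.034 (adjusted p = 0.924). Stress-related genes among the largest falls were AT4G30650, of the low temperature and salt responsive family of small membrane proteins, PDF2.1, a plant defensin, and AT1G56300, a DnaJ-domain chaperone. AT4G30650 averaged 232 ± 37.6 at 24 h and 739 ± 140.5 at 12 h (log2 difference -1.62, SE 0.06, adjusted p = 1.75e-05). The averages of PDF2.1 were 16.1 ± 5.20 at 24 h and 78.5 ± 43.5 at 12 h (log2 difference -1.60, adjusted p = 0.00301), and those of AT1G56300 were 19.0 ± 2.05 at 24 h and 71.1 ± 11.1 at 12 h (log2 difference -1.45, adjusted p = 0.000762). The cyclophilin gene AT2G21130 had -1.23 (adjusted p = 0.000637), and AT4G34950, a transporter of the major facilitator superfamily, had -1.95 (adjusted p = 9.62e-05). For AT5G62210, an embryo-specific protein 3 homologue, the difference was -1.79 (adjusted p = 0.000936). AT5G60760, a nucleoside triphosphate hydrolase family gene, AT1G68500 and AT2G43390 fell with differences of -1.16, -1.95 and -1.11 (adjusted p = 0.00237, 0.000763 and 0.00258). AT3G16330 had -1.13 (adjusted p = 0.0268), with a sulfate-free 24 h array A of 5.05 far below the other 24 h arrays. It is the only 1 of the 30 largest changes to lose its call in an alternative: without either sulfate-free array B or either replete array A (adjusted p between 0.080 and 0.082) and without the trend (0.051).

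Of 11 tested genes for ribosome assembly, 5 fell (45.5%, beside 3.1% of all probe sets), 0 rose and 6 did not pass. The log2 difference was negative for all 11. The median was -0.34, between -0.48 and -0.21 in the 4 pairs, beside a median of 0.004 over all probe sets. PRH75, an RNA helicase of the nucleolus, averaged 468 ± 55.8 at 24 h and 675 ± 99.4 at 12 h (log2 difference -0.52, adjusted p = 0.0347). AT2G37990, a homologue of the yeast assembly factor RRS1, averaged 217 ± 24.7 at 24 h and 312 ± 20.3 at 12 h (log2 difference -0.51, adjusted p = 0.0213). The other called genes were AT3G05060, of the NOP56 and NOP58 family, with -0.43 (adjusted p = 0.00934), AT2G40360, the homologue of BOP1, with -0.34 (adjusted p = 0.0267), and AT5G41190, the homologue of the nuclease NOB1, with -0.33 (adjusted p = 0.0335). These changes are small, and all 5 lost their call when any 1 of the 4 sulfate-free arrays or either replete array A was left out (adjusted p between 0.051 and 0.14). Without the trend AT3G05060 was still called and the other 4 were not (0.065 to 0.096), while with all 22 arrays AT3G05060 was not called (0.056) and the other 4 were. This list and that of the photosystem and antenna proteins were drawn up after values of such genes had been seen, so their counts are descriptions.

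Of 9 tested cold and dehydration protein genes 3 fell and 0 rose, beside 3.1% and 3.67% of all probe sets, with a median of -0.18. Besides COR27 these were the dehydrin genes LTI30 and COR47. LTI30 had 757 and 546 in sulfate-free and 738 and 526 in replete roots at 24 h. Its 12 h signals were 1241 and 813 in sulfate-free and 1023 and 855 in replete roots. Its times stayed apart on all arrays (log2 difference -0.61, SE 0.074, adjusted p = 0.00405). COR47 averaged 1354 ± 155 at 24 h and 1807 ± 286 at 12 h (log2 difference -0.41, adjusted p = 0.0413), but its groups overlapped and its call was lost without any 1 of the 8 arrays (adjusted p between 0.090 and 0.174). Without the pairing LTI30 and COR47 had adjusted p = 0.083 and 0.141. In both genes the mean level was highest at 2 h, with means over both media of 3011 for LTI30 and 3032 for COR47.

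For growth, the root hair expansin gene EXPA7 rose, with 175 and 127 in sulfate-free and 155 and 163 in replete roots at 24 h. At 12 h, sulfate-free roots had 95.4 and 92.7 and replete roots had 123 and 92.6. The difference was 0.57 (SE 0.099, adjusted p = 0.0168), and EXPA7 was the only called member among 4 root hair genes, whose median was 0.35. Its call was lost without any 1 of the 4 sulfate-free arrays or either replete array B (adjusted p between 0.051 and 0.079). Of 27 expansin and xyloglucan transferase genes EXPA7 rose and XTH20 fell, and the median was -0.054. XTH20 averaged 217 ± 44.8 at 24 h and 376 ± 56.3 at 12 h (log2 difference -0.77, adjusted p = 0.0156). Its call was lost without any 1 of the 4 sulfate-free arrays (0.056 to 0.065) and with all 22 arrays (0.105). Of 7 tubulin genes TUB9 fell, with 556 ± 62.7 at 24 h and 838 ± 59.3 at 12 h (log2 difference -0.59, SE 0.082, adjusted p = 0.0071). Of 5 histone genes HTB1 and HTB2 fell by 0.29 and 0.44 on the log2 scale (adjusted p = 0.0227 and 0.0201), calls that were lost without the pairing (0.217 and 0.096). The call of HTB1 was also lost without any 1 of the 8 arrays (0.052 to 0.099), and that of HTB2 without either sulfate-free array A or any 1 of the 4 replete arrays (0.055 to 0.095). None of the 3 dividing cell markers was called, and the kinase genes AUR2 and AUR1 had 0.27 (adjusted p = 0.305) and 0.20 (adjusted p = 0.157).

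Among the other lists, autophagy had 3 rises and 1 fall in 10 genes, beside 3.67% and 3.1% of all probe sets, and all 4 were in the ubiquitin-like ATG8 family. ATG8F, ATG8H and ATG8E had 0.32, 0.29 and 0.28, and ATG8D had -0.43 (adjusted p = 0.0114). The 3 rises were each lost without any 1 of the 8 arrays (adjusted p between 0.050 and 0.161) and without the pairing (0.224 to 0.583). The fall of ATG8D was lost without either array A of either medium (0.058 to 0.067). Of 5 sugar starvation genes MCCA, a subunit of methylcrotonyl-CoA carboxylase in leucine breakdown, rose (log2 difference 0.50, adjusted p = 0.0401) and BZIP53 fell (log2 difference -0.27, adjusted p = 0.0329). Both lost the call without any 1 of the 8 arrays (0.061 to 0.133). Of 13 glutathione transferase genes GSTU28 and GSTU27 rose. GSTU28 averaged 222 ± 12.1 at 24 h and 152 ± 12.7 at 12 h (log2 difference 0.52, SE 0.061, adjusted p = 0.00336). GSTU27 averaged 368 ± 113 at 24 h and 249.9 ± 43.3 at 12 h (log2 difference 0.51, adjusted p = 0.0168), a call lost without any 1 of the 4 sulfate-free arrays or either replete array A (0.059 to 0.078). SWEET2, a vacuolar sugar transporter gene, was the only 1 of 14 SWEET genes called, with 257 ± 36.7 at 24 h and 174 ± 21.6 at 12 h (log2 difference 0.53, adjusted p = 0.04). This was lost without either sulfate-free array B or any 1 of the 4 replete arrays (0.090 to 0.151). In larger families few members were called. CYP71B6 rose of 26 cytochrome P450 genes, scpl31 rose and SCPL49 fell of 29 serine carboxypeptidase-like genes, and WRKY6 fell of 6 WRKY genes. WRKY6 lost its call without any 1 of the 8 arrays (adjusted p between 0.069 and 0.180), without the pairing (0.436), with all 22 arrays (0.124) and without the trend (0.102). The call of CYP71B6 was lost without any 1 of the 4 sulfate-free arrays or either replete array A (0.066 to 0.096), with all 22 arrays (0.060) and without the trend (0.072). Without any 1 of the 4 arrays A, scpl31 (0.050 to 0.074) and SCPL49 (0.051 to 0.056) were not called. None of 20 beta-glucosidase, 11 auxin-responsive, 7 calmodulin-like, 5 sulfur limitation or 4 iron deficiency genes was called over both media.

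**Figure D2:**
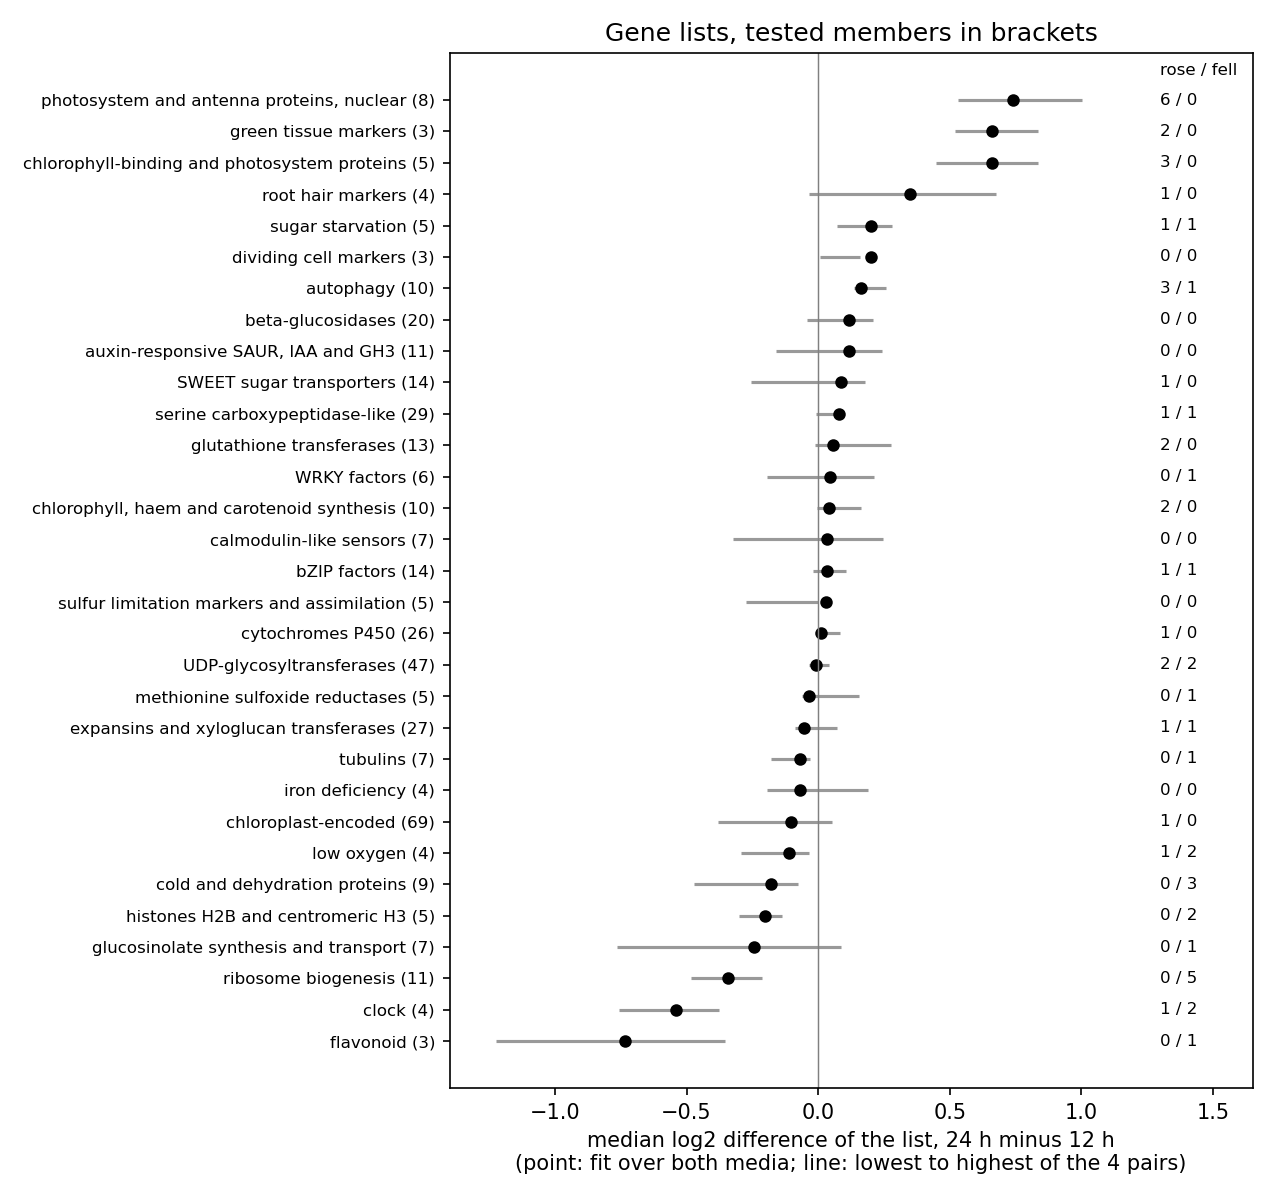
Median log2 difference, 24 h minus 12 h, of each gene list with at least 3 tested members: points give the fit over both media, lines run from the lowest to the highest of the 4 pair medians, and the numbers on the right count members that rose and fell. The nuclear photosystem list lies highest at 0.74 with 6 of 8 members called, followed by the green tissue (3 tested) and chlorophyll-binding (5 tested) lists, both at 0.66. These lists share members and are not separate observations: both medians of 0.66 are the value of LHCB4.1, which is also in the photosystem list. The flavonoid list (3 tested) lies lowest at -0.73, followed by the clock list (4 tested) at -0.54. The clock list had 1 rise and 2 falls, so its median does not describe a shared direction. Ribosome biogenesis lies at -0.34 with 5 of 11 called, and most other lists lie closer to no change.

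The levels at the remaining times show how the 12 h and 24 h roots lie within the first day. AT3G16800 had 412 and 443 in roots that were not transferred. Its means over both media were 640.1, 351, 84.3, 44.1 and 353 after 2, 4, 8, 12 and 24 h, so its lowest level was at 12 h. RCA was lowest at 12 h too, with 209 and 284 without transfer and means of 156, 140.0, 96.9, 81.6 and 212 at 2, 4, 8, 12 and 24 h. PDC2 ran the other way, with 46.4 and 66.7 without transfer and 118, 233, 375, 366 and 61.9 at the 5 times. UGT84A1 was raised at 12 h above all other times, with 18.0 and 40.3 without transfer and 28.5, 30.2, 76.7, 255 and 56.4 at the 5 times. GI was highest at 4 h (361) and lowest at 12 h (118). AT1G52820 was an exception among the rises, with 94.7 at 24 h and 61.6 and 24.9 in roots that were not transferred.

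Over all called probe sets, the level in roots that were not transferred was nearer to that at 24 h than to that at 12 h for 747 of 834 rises (89.6%) and 646 of 706 falls (91.5%), beside 62.2% of all probe sets. At 2 h the level was nearer to that at 24 h for 69.7% of rises and 70.3% of falls (54.7% of all), at 4 h for 69.5% and 61.3% (54.7% of all), and at 8 h for 35.5% and 29.0% (46.5% of all). The 12 h and 24 h values chose these probe sets, so the shares are a description without a test.

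**Figure D3:**
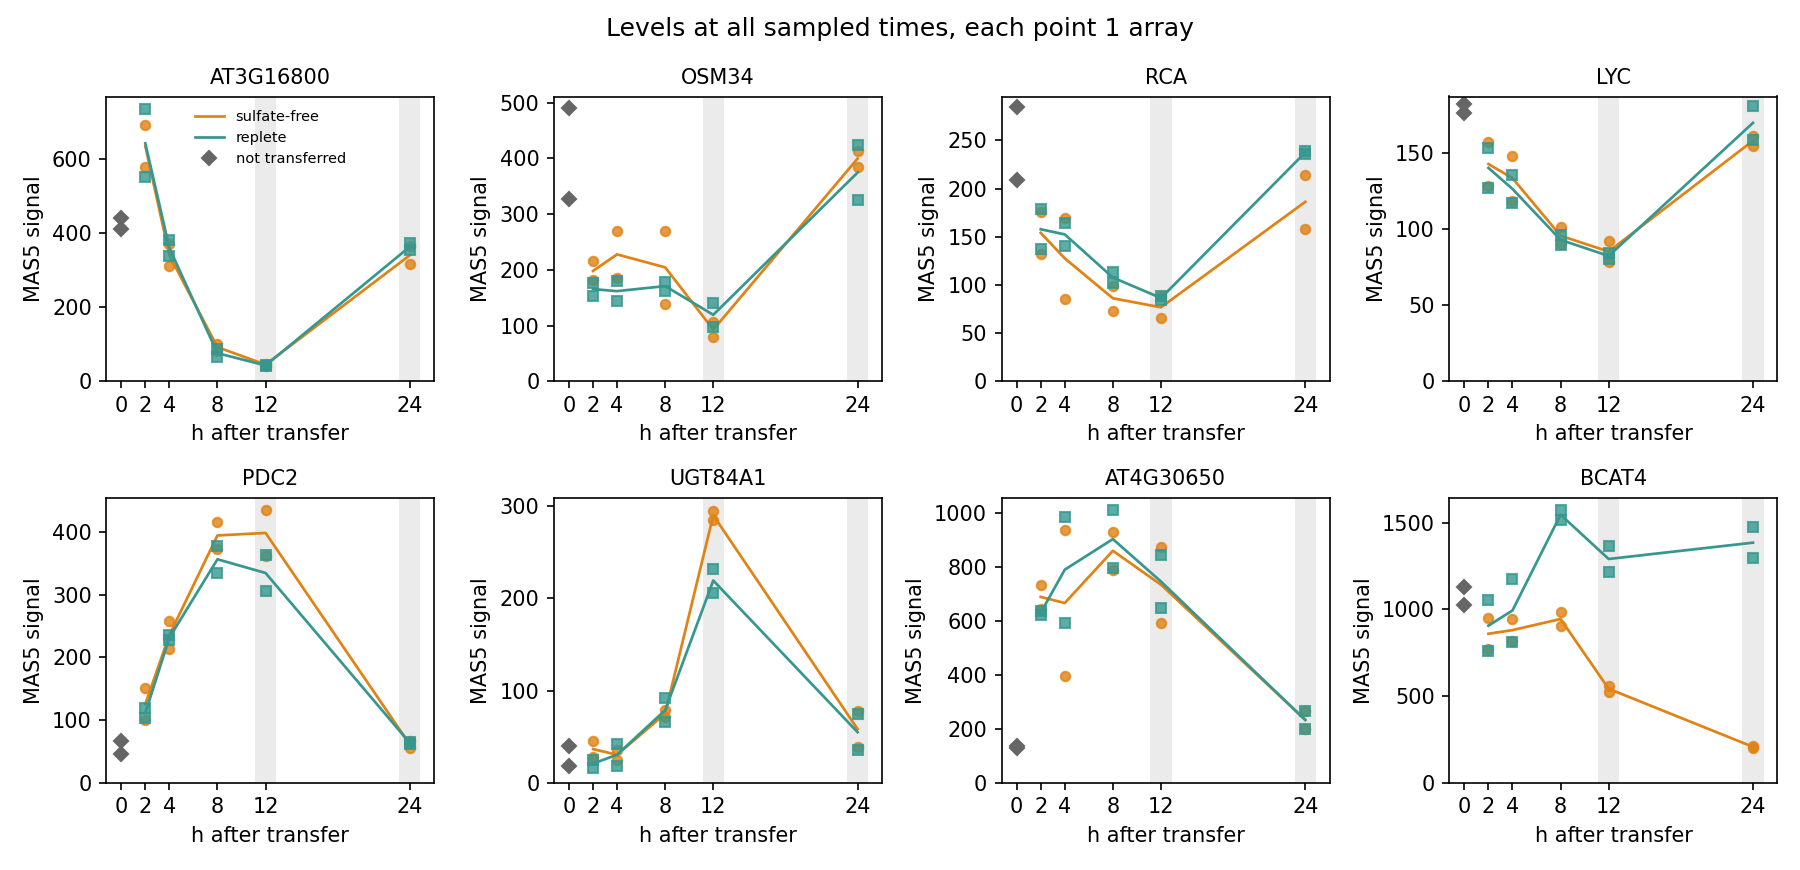
MAS5 signal against hours after transfer for 8 genes, with each point 1 array, lines through the group means of sulfate-free (orange) and replete (green) roots, grey diamonds for roots that were not transferred, and shading at 12 and 24 h. AT3G16800, OSM34, RCA and LYC are lowest at 12 h, PDC2, UGT84A1 and AT4G30650 are higher at 12 h than at 24 h, and BCAT4 differs between the media.

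Tested within each medium with all 22 arrays, 309 probe sets rose (1.36%) and 304 fell (1.34%) in sulfate-free roots, 2.69% together. In replete roots 258 rose (1.13%) and 173 fell (0.761%), 1.89% together. Both media shared 286 calls, which is 46.7% of those in sulfate-free and 66.4% of those in replete roots, and 285 of these had the same sign. The log2 differences of both media correlated with r = 0.53 over all probe sets and r = 0.91 over the 758 called in either medium, as a description over probe sets read on the same arrays. Without the letter as a factor the counts were 252 and 191. The sulfate-free count was 271 without the 24 h array A, 230 without the 24 h array B, 155 without the 12 h array A and 392 without the 12 h array B. The replete count was 144 without the 24 h array B and 164 and 182 without the 12 h arrays A and B.

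A difference between media in the change itself was called for 3 probe sets (0.0132%), 1 positive (0.0044%) and 2 negative (0.00879%), with 1342 at an unadjusted p under 0.05. BCAT4 encodes the aminotransferase that starts the lengthening of methionine towards aliphatic glucosinolates, sulfur-rich defence compounds of this plant family. Its probe set had 201 and 211 in sulfate-free and 1294 and 1476 in replete roots at 24 h. The 12 h signals were 525 and 558 in sulfate-free roots and 1217 and 1365 in replete roots. It fell in sulfate-free roots by 1.35 on the log2 scale (adjusted p = 2.49e-05) and had 0.10 in replete roots (adjusted p = 0.822). The difference between media was -1.45 (SE 0.18, adjusted p = 0.00728). This call was lost without any 1 of the 8 arrays (adjusted p between 0.051 and 0.081, with log2 values between -1.51 and -1.38), in the 8 arrays alone (0.159) and without the letter (0.148). The unnamed probe set 249866_at had 73.1 and 75.4 on sulfate-free and 506 and 446 on replete medium at 24 h. It had 176 and 187 on sulfate-free and 419 and 431 on replete medium at 12 h. Its difference between media was -1.33 (SE 0.14, adjusted p = 0.00201), called without each of the 8 arrays in turn but not in the 8 arrays alone (0.216). The unnamed probe set 248473_at rose in sulfate-free and fell in replete roots, with averages at 24 h of 449.6 ± 31.5 in sulfate-free and 187 ± 16.4 in replete roots (SD, n = 2). At 12 h these averages were 263 ± 38.7 in sulfate-free and 264 ± 7.42 in replete roots. The difference between media was 1.23 (SE 0.15, adjusted p = 0.00728). This call was lost without any 1 of 6 arrays, all but the replete 24 h array A and the sulfate-free 12 h array A (0.061 to 0.081), in the 8 arrays alone (0.216) and without the letter (0.083).

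Of 7 tested genes for glucosinolate synthesis and transport 5 fell in sulfate-free roots (beside 1.34% of all probe sets) and 0 in replete roots (beside 0.761%). The medians were -0.65 in sulfate-free and 0.087 in replete roots. The 5 were BCAT4, AT2G25450, a dioxygenase that modifies glucosinolate side chains (-1.18 in sulfate-free and -0.45 in replete roots), and 3 others. These were the glucosyltransferase genes AT2G31790 (-0.67 and 0.26) and UGT74B1 (-0.65 and -0.02), and the importer gene GTR2 (-0.44 and 0.32). Their adjusted p in sulfate-free roots were 0.000349, 0.0109, 0.0101 and 0.0399 for AT2G25450, AT2G31790, UGT74B1 and GTR2. Apart from BCAT4 none of the 7 passed the test of the difference between media, with adjusted p of 0.367 for AT2G31790, 0.379 for GTR2 and 0.76 for both AT2G25450 and UGT74B1. AT2G25450 was the only 1 of the 7 called over both media (log2 difference -0.81, adjusted p = 0.0269), a call lost without any 1 of the 4 sulfate-free arrays or either replete array A (0.093 to 0.122). BGLU28, a beta-glucosidase gene known to respond to low sulfur, had 392 and 331 in sulfate-free and 9.84 and 6.21 in replete roots at 24 h. Sulfate-free roots at 12 h had 98.4 and 111, and replete roots had 4.42 and 9.78. It rose in sulfate-free roots by 1.68 (adjusted p = 0.000742) from a level already above the replete arrays at 12 h, and the difference between media was 1.60 (adjusted p = 0.461).

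**Figure D4:**
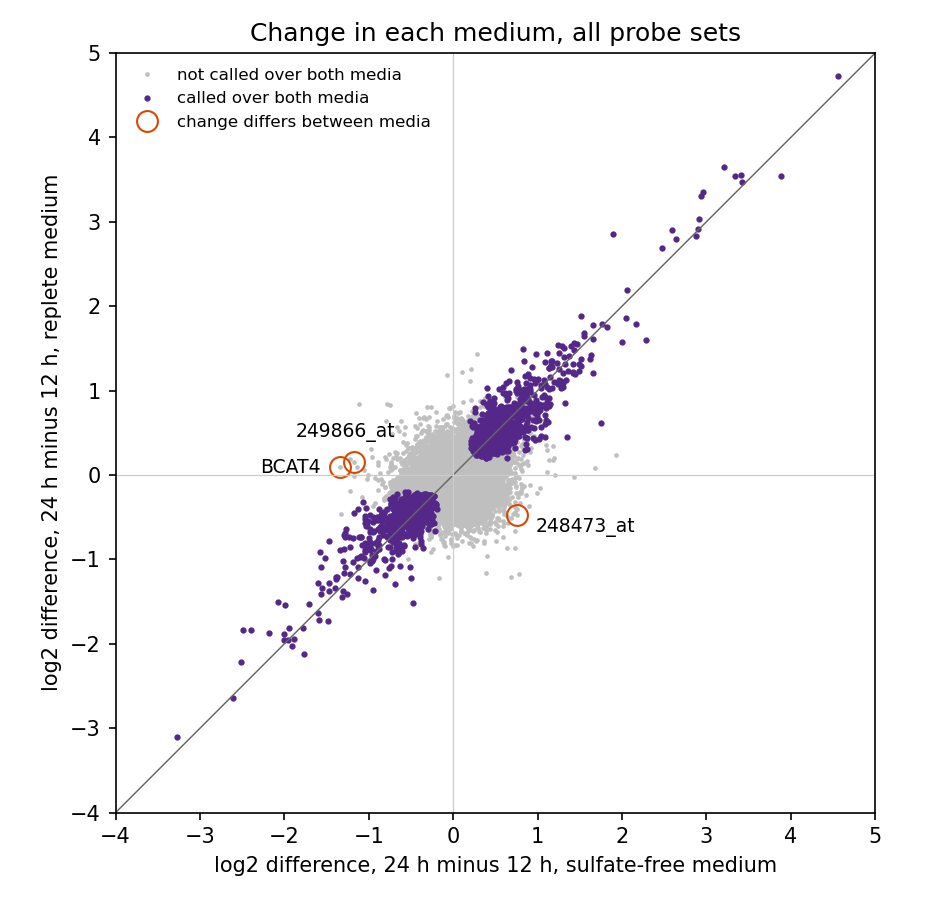
Log2 difference, 24 h minus 12 h, in sulfate-free roots (x axis) and replete roots (y axis) for all 22746 probe sets: purple points were called over both media, grey points were not, and circles mark the 3 probe sets whose change differed between media. Most purple points lie near the diagonal of equal change, while BCAT4 and 249866_at lie left of it. The choice of purple points favours this, since a change unlike in the media counts as spread in the fit over both media.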

How the data were processed

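RNA of whole roots was hybridised to 1 array per sample. The deposited values are probe set signals, a linear intensity for which the submitters' processing notes name MAS5. The authors' scaling between arrays was kept, and its target is not given in the sources used here. Probe sets were named through the platform annotation, which gives 1 gene for 13513 of them, several for 503 and none for 8730, and symbols were updated through RefSeq TAIR10.1, which matched 13436. A probe set with several genes named none. Coordinates and promoter sequences were not analysed here, as the values come with no genome build.

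The log2 of signal plus a pseudocount of 11 was taken, beside a pooled median signal of 43.9. All 22746 probe sets other than controls were tested two-sided in R 4.3.3 with lmFit and eBayes of limma 3.58.1, with an intensity trend in the variance. P-values were adjusted after Benjamini-Hochberg, with a threshold of 0.05. This scale understates changes of dim probe sets. The fit over both media used the 8 arrays with the 4 pairs of medium and letter as blocks (3 residual and 4.59 prior degrees of freedom, median SE 0.11). Changes within a medium and their difference used all 22 arrays in 11 groups with the letter as a factor (10 residual and 4.94 prior degrees of freedom, median SE 0.164 and 0.232). The fits were tested on simulated data. The number of arrays limits the precision.

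By rule, the text names the 15 largest rises and 15 largest falls on probe sets with 1 gene whose 4 arrays at each time do not overlap and whose higher mean is at or above the pooled median, up to 6 called and 3 uncalled members of each list, all members of small lists where useful, and genes whose change differed between media. There were 46 lists, 10 with no tested member. The members and lists were chosen with earlier results of these data known, and those for ribosome biogenesis, photosystem proteins, pigments, chloroplast-encoded transcripts and further families after annotation and values had been seen. Lists were counted, not tested. Alternatives were other pseudocounts, quantile normalization, a filter on dim probe sets, no trend, no pairing, other sets of arrays, and leaving out each array.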

Additional observations from a re-analysis of the deposited data

Results flagged for a closer look

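The change between 12 h and 24 h passed limma's test of a difference between media, sulfate-free minus replete, for BCAT4 (-1.45, adjusted p = 0.00728), the unnamed probe set 249866_at (-1.33, adjusted p = 0.00201) and the unnamed probe set 248473_at (1.23, adjusted p = 0.00728).

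For 13 further named genes, both sulfate-free pairs moved one way and both replete pairs the other, and none of these differences passed the limma test (adjusted p between 0.367 and 0.992). The glucosinolate genes AT2G31790 and GTR2 had differences of -0.93 and -0.76, falling short with adjusted p = 0.367 and 0.379. PYK10 had 0.70, DFR had 0.68, MSRB5 had 0.41 and UGT72E2 had 0.40. HEME2, a haem pathway gene, had -0.42, and the response regulator gene ARR15 had 0.37. The glutathione transferase genes GSTU23, GSTU26 and GSTL3 had -0.33, -0.33 and 0.26. WRKY20 had 0.32, and LIL3:2 had 0.09. Opposite signs in 2 pairs against 2 also arise among genes with no change.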

How the results depend on the processing

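Over both media, 1540 probe sets were called, and 914 without the intensity trend, while the count lay between 570 and 1309 when 1 array, and so 1 pair, was left out. All 1540 kept their sign in each of these 8 fits, and 448 their call. The kept sign adds little, since the same arrays chose the 1540. Arrays paired by letter had A minus B differences that correlated between 24 h and 12 h with r = 0.32 in sulfate-free and 0.058 in replete roots. Across media these correlations were 0.24 and 0.37 between times and 0.28 and 0.18 within 24 h and 12 h, so the pairs by medium do not stand above arrays that share only a letter. Without the replicate block 1120 probe sets were called (614 rises, 506 falls), of which 1076 are shared with the paired fit. The filter on dim probe sets gave 2230, other pseudocounts 1808 and 1417, quantile normalization 1602 (814 rises, 788 falls) and all 22 arrays 1624.

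For sulfate-free roots, 613 calls became 373 in the 8 arrays alone, 252 with no replicate block, 271 with a random replicate block of time and letter, and 155 to 539 with 1 array left out. For replete roots, 431 became 191 with no replicate block, 207 with the random block, and 144 to 438 with 1 array left out. The difference between media had 3 calls, against 0 in the 8 arrays alone, 1 with no replicate block, 5 with the filter, 5 with a pseudocount of 44, and 1 to 3 with 1 array left out. The causes were not tested.

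Of 73 called named genes, 53 kept their call with other pseudocounts, quantile normalization, no replicate block and all 22 arrays, 46 of them also without the trend, and 41 kept it in each fit with 1 array left out. With all 22 arrays 13 of the 73 lost their call, among them UGT72E1, ATG8E, ATG8F, ATG8H, HTB1, HTB2, MCCA and AT4G17260. With no trend 22 lost it. None changed sign. Of the 30 largest changes 29 kept it throughout.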
